A study of Mus musculus with 2 samples.

Results

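The mitophagy receptor and ATG8 genes described here are 10 of the 43346 mouse genes measured: the receptors Bnip3l, Bnip3 and Fundc1, the ATG8 genes Gabarap, Gabarapl1, Gabarapl2, Map1lc3a and Map1lc3b, the cargo adaptor Sqstm1 and the kinase Ulk1. They were chosen by symbol, and all 10 matched an entry by identifier. The cells were G1E-ER4, a male immortalised mouse erythroid line without functional Gata1 of its own, to which GATA1 was returned as a fusion with an estrogen receptor's ligand-binding part. Differentiation was induced with 10 nM 17beta-estradiol for 24 h, and polyadenylated RNA was sequenced from both ends of the fragments in 2 libraries named biological replicates 1 and 2. Both libraries carry the fusion and the treatment, both point to the same biosample record, and no untreated sample was analysed here, which leaves no condition to compare and a spread that may be technical. Replicate 1 was 5.09-fold deeper, with 70451042 estimated counts, than replicate 2, with 13841487. A count of 0 (3 counts of the total taken as its limit) thus leaves room for 0.0426 counts-per-million (CPM) in replicate 1 and for 0.217 in replicate 2; such limits and intervals cover counting error only. Of 7 erythroid marker genes 6 reached at least 1 TPM (transcripts-per-million) in both libraries, with a summed level of 194399 TPM in replicate 1 and 83190 TPM in replicate 2, nearly all of it the globin genes Hbb-bs and Hba-a1. Klf1, an erythroid transcription factor gene, differed the other way, with 665 TPM in replicate 1 against 2351 TPM in replicate 2. The membrane skeleton gene Epb42 was the exception, with 1.32 and 0.29 TPM. None of 4 monocyte and macrophage, 4 mast cell and 4 neutrophil markers did so, and none of these 3 lists summed to more than 1.11 TPM in a library, while 3 of 5 megakaryocyte markers did (sums of 22.4 TPM in replicate 1 and 36.6 TPM in replicate 2, with Pf4 at 0).

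Maturing red cells lose their mitochondria and other organelles before they become erythrocytes. Mitophagy removes mitochondria by wrapping them in a double membrane that carries small ubiquitin-like ATG8 proteins. Receptors in the outer mitochondrial membrane hold a short LC3-interacting region, an aromatic residue followed after a gap of a pair of residues by an aliphatic one, which binds ATG8. Each ATG8 protein must first be cut by an ATG4 protease just after a glycine near its end, and that glycine is then joined to a membrane lipid. BNIP3L, also called NIX, is the receptor known for clearing mitochondria from mouse reticulocytes.

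The codons of these contact points are shown because the transcripts that led several of the genes differed in whether they held them. Each stretch of 30 bases was read from GENCODE M21 transcripts (mm10, also called GRCm38) and is written 5′ to 3′ on the strand of the gene. Capitals mark the 4 codons of the LC3-interacting region in the receptors and the adaptor, and the glycine codon after which ATG4 cuts in 4 ATG8 genes. The Bnip3l and Bnip3 stretches span an intron, so their coordinates cover more than 30 bases.
Bnip3l-201, chr14:66999679-67008691, minus strand, codons 35 to 38 of 218: aacagttccTGGGTGGAGCTAcccatgaac
Bnip3-201, chr7:138898803-138909366, minus strand, codons 13 to 16 of 187: cagggctccTGGGTAGAACTGcacttcagc
Fundc1-201, chrX:17571416-17571445, minus strand, codons 18 to 21 of 155: gacgaatcaTACGAAGTGTTGgatttaact
Sqstm1-202, chr11:50202532-50202561, minus strand, codons 340 to 343 of 442: gacgatgacTGGACACATTTGtcttcaaaa
Map1lc3a-201, chr2:155277605-155277634, plus strand, codon 120 of 121: gtctacgcctcccaagaaaccttcGGCttc
Gabarap-201, chr11:69994492-69994521, plus strand, codon 116 of 117: gcctacagtgatgaaagcgtctatGGTctg
Gabarapl1-201, chr6:129541135-129541164, plus strand, codon 116 of 117: gcctacagtgatgaaagtgtctatGGAaaa
Gabarapl2-201, chr8:111952373-111952402, plus strand, codon 116 of 117: gcctacagcggagagaacacttttGGCttc

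Bnip3l and Bnip3 open their region with a TGG (tryptophan) codon, and Fundc1 with a TAC (tyrosine) codon. Over the whole principal coding sequence, the one the annotation marks as the main protein product, Map1lc3a and Map1lc3b were 76.6% identical and Gabarap and Gabarapl1 74.6%, whereas each LC3 gene was 51.0 to 57.3% identical to each GABARAP gene. Bnip3l and Bnip3 were 73.5% identical. The longest identical run between any of these close pairs was 17 bases, between Gabarap and Gabarapl1.

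Among the receptors, Bnip3l and Bnip3 had higher levels over all transcripts than Fundc1 in both libraries. Levels of different genes are compared in TPM, which is per length, and in bulk RNA fewer cells with a transcript and less of it per cell cannot be told apart. Bnip3l (ENSMUSG00000022051.11, chromosome 14, 66985239 to 67008877, minus strand) measured 59.1 TPM in replicate 1 against 705 TPM in replicate 2, giving 382 ± 456 TPM (mean ± SD, n = 2). Its level was 11.9-fold higher in replicate 2, and its SD exceeded its mean. Over coding transcripts alone it measured 56.2 TPM in replicate 1 and 13.9 TPM in replicate 2. Bnip3 (ENSMUSG00000078566.4, chromosome 7, 138890836 to 138909519, minus strand), the paralogue known for its induction under low oxygen, stood at 284 TPM in replicate 1 against 353 TPM in replicate 2, with a mean of 319 ± 48.7 TPM. Fundc1 (ENSMUSG00000025040.9, chromosome X, 17556564 to 17572325, minus strand), a receptor known from mitophagy under low oxygen in mammalian cells, reached 8.66 TPM in replicate 1 but 0.19 TPM in replicate 2. Its replicate 2 value rests on 4 estimated counts, against 271 in replicate 1, so the share of its transcripts there is not read further.

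Sqstm1 (ENSMUSG00000015837.11, chromosome 11, 50199366 to 50210827, minus strand), which encodes p62, the adaptor that links ubiquitin-tagged cargo to ATG8, measured 185 TPM in replicate 1 against 370 TPM in replicate 2, giving 277 ± 131 TPM. Ulk1 (ENSMUSG00000029512.7, chromosome 5, 110784488 to 110810097, minus strand), the kinase that starts autophagosome formation, measured 59.6 TPM in replicate 1 against 109 TPM in replicate 2, giving 84.4 ± 35.1 TPM. Over all transcripts both were higher in replicate 2, by less than Bnip3l was. Over transcripts with the principal coding sequence, Sqstm1 was instead 2.50-fold higher in replicate 1, at 62.7 TPM, against 25.1 TPM in replicate 2.

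Gabarap led the ATG8 genes in both libraries. Gabarap (ENSMUSG00000018567.10, chromosome 11, 69991143 to 69994951, plus strand) measured 742 TPM in replicate 1 against 273 TPM in replicate 2, which averages 507 ± 331 TPM. Gabarapl1 (ENSMUSG00000030161.6, chromosome 6, 129533160 to 129542346, plus strand), its closest relative in coding sequence, stood at 76.0 TPM in replicate 1 against 17.8 TPM in replicate 2. Gabarapl2 (ENSMUSG00000031950.7, chromosome 8, 111940703 to 111953612, plus strand), whose product is also called GATE-16, had 4.88 TPM in replicate 1 on 507 counts and was listed at 0 in replicate 2. The 3 genes of the GABARAP subfamily were therefore all higher in replicate 1.

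The LC3 genes, whose lipid-bound products are the usual marker of autophagosomes, lay between these values, and the libraries ordered them in opposite ways. Map1lc3a (ENSMUSG00000027602.5, chromosome 2, 155276297 to 155278073, plus strand) measured 46.7 TPM in replicate 1 against 153 TPM in replicate 2, giving 99.6 ± 74.8 TPM. Map1lc3b (ENSMUSG00000031812.12, chromosome 8, 121590361 to 121598760, plus strand) measured 132 TPM in replicate 1 against 43.0 TPM in replicate 2, giving 87.5 ± 62.9 TPM. Map1lc3b thus exceeded Map1lc3a in replicate 1 and Map1lc3a exceeded Map1lc3b in replicate 2, and their means did not differ beyond the spread.

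**Figure D1:**
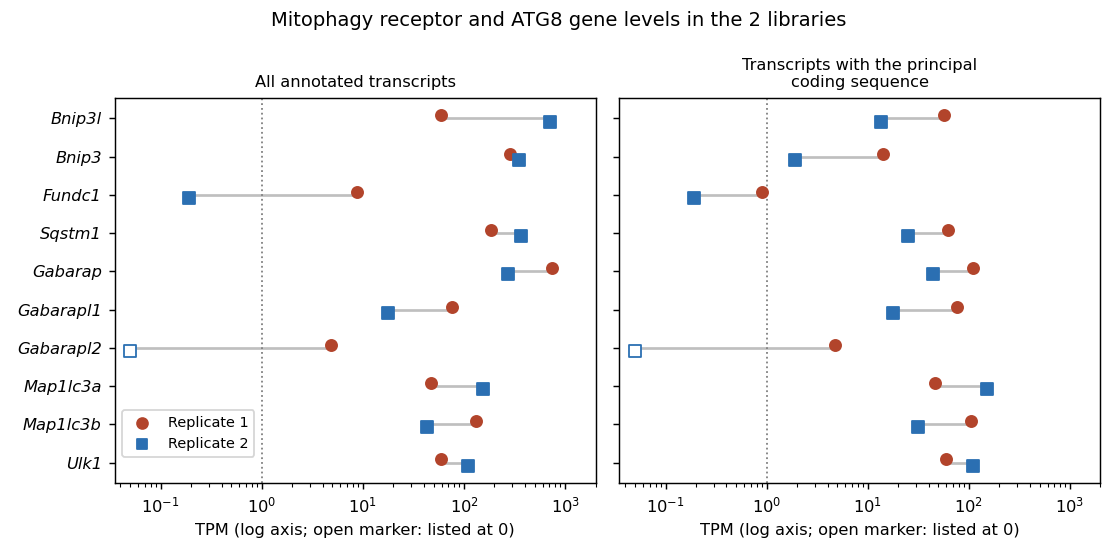
TPM (log axis) of the 10 genes in replicate 1 (red circles) and replicate 2 (blue squares), over all annotated transcripts on the left and over transcripts with the principal coding sequence on the right; the dotted line marks 1 TPM and an open marker a gene listed at 0. Bnip3l sits at 59.1 TPM in replicate 1 against 705 TPM in replicate 2 over all transcripts, but 56.2 and 13.5 TPM over transcripts with the principal coding sequence.

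At least 1 TPM in both libraries was reached by 8 of the 10 genes, all but Fundc1 and Gabarapl2, against 17.2% of all genes and 33.1% of protein-coding genes. By mean TPM the order was Gabarap, Bnip3l, Bnip3, Sqstm1, Map1lc3a, Map1lc3b, Ulk1, Gabarapl1, Fundc1 and Gabarapl2. Of the 9 pairs of neighbours in that order 7 had overlapping values, and the separated pairs were Sqstm1 above Map1lc3a and Gabarapl1 above Fundc1. In replicate 1 the order opened with Gabarap, Bnip3, Sqstm1 and Map1lc3b and put Bnip3l seventh, and in replicate 2 it opened with Bnip3l, Sqstm1, Bnip3 and Gabarap. The 10 genes summed to 1597 TPM in replicate 1 and 2024 TPM in replicate 2.

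The Bnip3l level was assigned mostly to different annotated transcripts in the 2 libraries, as a model estimate. Bnip3l-201, of 3238 bases, which encodes the full-length receptor, held 95.1% of the gene's TPM in replicate 1 and 1.91% in replicate 2. Bnip3l-205, of 789 bases and annotated with no coding sequence, held 0% in replicate 1 and 98.0% in replicate 2, or 690.6 TPM on 5090 estimated counts. Over coding transcripts alone, Bnip3l was 4.05-fold higher in replicate 1, at 56.2 TPM, against 13.9 TPM in replicate 2, which is the opposite direction to the whole gene. Of the estimated counts, Bnip3l-201 held 99.4% in replicate 1 and 8.39% in replicate 2.

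TPM divides counts by effective length. Bnip3l had an effective length of 2952 bases in replicate 1 and 708 bases in replicate 2, a 4.17-fold difference. In CPM of the library total it had 171 in replicate 1 and 403 in replicate 2, so its counts alone were 2.36-fold higher in replicate 2. Fundc1 also differed, with 454 bases in replicate 1 and 1853 bases in replicate 2, where it had 4 counts. Its posterior mean in replicate 2 was 0.93 TPM, against the 0.19 TPM given above. Among the 7444 genes with at least 1 TPM in both libraries, 6.02% had effective lengths at least 2-fold apart and 0.390% had one at least 4-fold longer in replicate 1. Isoform shares are model estimates from short fragments, and 757 of the 789 bases of Bnip3l-205 are also in Bnip3l-201.

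**Figure D2:**
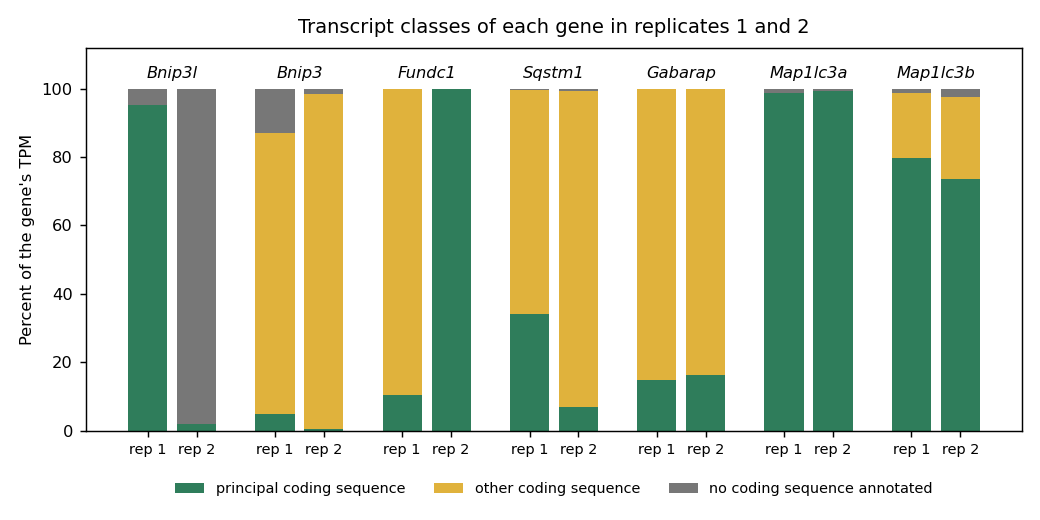
Percent of each gene's TPM held by transcripts with the principal coding sequence (green), another coding sequence (yellow) or none annotated (grey) in replicates 1 and 2, for genes with several annotated transcripts and counts in both libraries. Bnip3l had 95.1% principal coding sequence in replicate 1 but 98.0% without an annotated coding sequence in replicate 2, while Gabarap had 14.8 and 16.2% principal coding sequence; Fundc1 in replicate 2 rests on 4 counts.

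In 3 other genes the leading transcript was coding but did not hold the principal coding sequence, in either library. How often this occurs over all genes was not computed, so it is not read as a trait of these genes. Bnip3-203, of 719 bases and 173 codons, held 82.1% of the Bnip3 level in replicate 1 and 97.9% in replicate 2, against 4.99 and 0.54% for Bnip3-201, which stood at 14.2 TPM in replicate 1 against 1.91 TPM in replicate 2. Gabarap-202, of 750 bases and 106 codons, held 85.2% of the Gabarap level in replicate 1 (631 TPM) and 83.8% in replicate 2 (229 TPM). Sqstm1-205, of 1266 bases and 382 codons, held 65.2% of the Sqstm1 level in replicate 1 (120 TPM) and 92.5% in replicate 2 (342 TPM). The shares agreed closely between libraries for Gabarap and not for Sqstm1, whose Sqstm1-202 had 34.0% in replicate 1 and 6.77% in replicate 2.

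Several annotated transcripts and a mean of 10 TPM or more were found for 6 of the genes. In 5 of them 1 transcript led both libraries, and in Bnip3l the lead differed, as it did in 33.5% of all 3700 such genes. Bnip3l was also the 1 gene of the 6 led by a transcript that is not protein coding, which was so in at least 1 library for 40.9% of the 3700. Map1lc3a was led by Map1lc3a-201 (98.6% in replicate 1 and 99.4% in replicate 2) and Map1lc3b by Map1lc3b-201 (79.7 and 73.6%). Gabarapl1 and Ulk1 have a single transcript in the tables. Fundc1 had 89.7% of its replicate 1 level in Fundc1-204, of 448 bases, and 10.3% in Fundc1-201.

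The exon junctions that set the leading transcripts apart are shown for the 3 genes in which it lacks the contact point in frame. Each is 15 bases on either side of a junction, from GENCODE M21 transcripts (mm10), 5′ to 3′ on the gene's strand, and capitals mark the exon that differs (in Sqstm1, the exon after the junction, since neither side is shared). For Bnip3l the exon before the junction is chr14:66993877-66993949 in Bnip3l-201 and chr14:66989810-66989841 in Bnip3l-205. For Gabarap the exon after it is chr11:69992582-69992700 in Gabarap-201 and chr11:69992676-69992700 in Gabarap-202. For Sqstm1 the exon after it is chr11:50202399-50202594 in Sqstm1-202 and chr11:50200611-50200912 in Sqstm1-205.
Bnip3l-201: GACCACAGCTCTCAGtcagaagaagaagtt
Bnip3l-205: CCCATCTCCTTTTTGtcagaagaagaagtt
Gabarap-201: cttctgatcttacagTTGGTCAATTCTACT
Gabarap-202: cttctgatcttacagTGCCACGATGGGTCA
Sqstm1-202: gtgggacagccagagGAACAGATGGAGTCG
Sqstm1-205: aaagatagccttggaATGCTGTCCATGGGT

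Bnip3l-205 starts with an exon of 32 bases that Bnip3l-201 does not have, joins exons shared with Bnip3l-201, and holds 300 of the 654 principal coding bases (45.9%), without the codons of the LC3-interacting region. Gabarap-202 uses 25 bases of an exon that has 119 bases in Gabarap-201. It contains the bases of the glycine codon, but its annotated reading frame does not read them as that codon. Sqstm1-205 holds 81.1% of the principal coding bases and lacks the exon with the LC3-interacting region. These percents count shared positions, not reading frame. The annotated coding part of Sqstm1-205 ends 10104 bases from the start of Sqstm1-202, past the end at 10034 in Sqstm1-202. The coding bases they share in that last exon are thus read in another frame. Bnip3-203, in contrast, holds 92.3% of the principal coding bases and the region's codons in frame.

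Summed over transcripts that hold the codons in frame, the contact point was in 95.2% of the Bnip3l level in replicate 1 and 1.97% in replicate 2. The same share was 34.5% in replicate 1 and 6.77% in replicate 2 for Sqstm1, and 14.8 and 16.2% for Gabarap. It was at least 98.6% in each library for Map1lc3a and Gabarapl1, and 98.4% for Gabarapl2 in replicate 1. For Bnip3 it was 87.1% in replicate 1 and 98.4% in replicate 2.

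**Figure D3:**
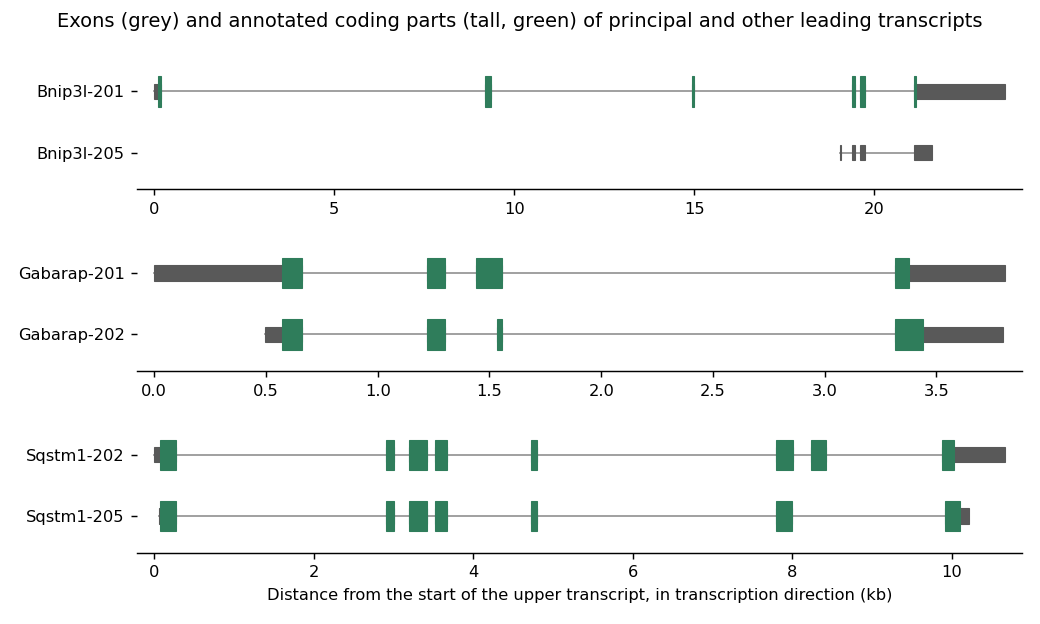
Exons (grey) and annotated coding parts (tall, green) of the principal transcript and of the other leading transcript of Bnip3l, Gabarap and Sqstm1, to scale within each gene, by distance in kilobases from the start of the upper transcript. Bnip3l-205 has no annotated coding part and starts with a 32-base exon, Gabarap-202 has 25 of the 119 bases of the third exon of Gabarap-201, and Sqstm1-205 lacks an exon of Sqstm1-202.

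Within the ATG8 family the GABARAP subfamily held most of the TPM, and Gabarap most of that. The 5 ATG8 genes summed to 1001 TPM in replicate 1 and 486 TPM in replicate 2. Of this the GABARAP subfamily took 82.1% in replicate 1 and 59.8% in replicate 2, or 71.0 ± 15.8% (SD, n = 2). Gabarap alone took 74.1% in replicate 1 and 56.1% in replicate 2, or 65.1 ± 12.7%. The GABARAP genes summed to 822 TPM in replicate 1 and 291 TPM in replicate 2, whereas the LC3 genes summed to 179 and 196 TPM.

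Map1lc3a was the ATG8 gene whose share differed most between the libraries. Map1lc3a took 4.66% of the ATG8 TPM in replicate 1 and 31.4% in replicate 2, and Map1lc3b took 13.2 and 8.85%. Gabarapl1 took 7.59% in replicate 1 and 3.66% in replicate 2, and Gabarapl2 took 0.487% in replicate 1 with no count in replicate 2. Of the ATG8 estimated counts, which favour longer transcripts, the GABARAP subfamily took 66.7% of 66096 in replicate 1 (95% Wilson interval 66.4 to 67.1%) and 48.7% of 5163 in replicate 2 (47.3 to 50.1%). Counting the principal coding sequence alone, the subfamily took 55.8% of TPM in replicate 1 and 25.3% in replicate 2, where Map1lc3a led with 61.8%. That count of the principal coding sequence was chosen after seeing the data.

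**Figure D4:**
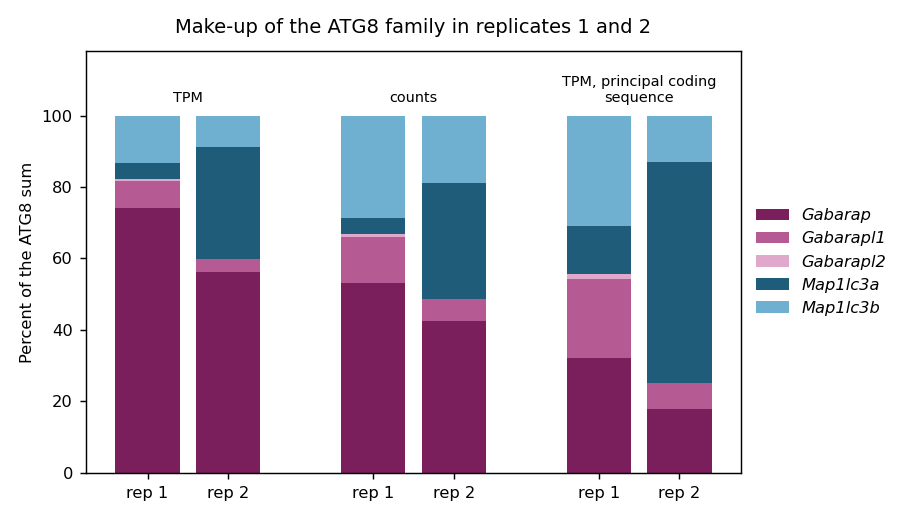
Percent of the ATG8 sum held by each of the 5 ATG8 genes in replicates 1 and 2, as TPM, as estimated counts and as TPM of transcripts with the principal coding sequence. Gabarap holds 74.1% of TPM in replicate 1 and 56.1% in replicate 2, while Map1lc3a has the largest share, 61.8%, of the principal coding sequence in replicate 2.

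Among the receptors, Bnip3l took 16.8% of the summed TPM in replicate 1 and 66.6% in replicate 2, or 41.7 ± 35.2%. Restricted to coding transcripts, it took 18.0% in replicate 1 and 3.84% in replicate 2. The 3 receptors summed to 352 TPM in replicate 1 and 1058 TPM in replicate 2 over all transcripts, and to 313 and 362 TPM over coding transcripts, most of it Bnip3.

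Of 9 log2 ratios within a library (a pseudocount of 0.1 TPM was added), 6 had the same sign in both. None was tested, since flipping the signs of 2 values gives an exact two-sided p of at least 0.5. Gabarap exceeded Gabarapl1 by 3.29 in replicate 1 and 3.93 in replicate 2 (mean 3.61 ± 0.46) and exceeded Map1lc3b by 2.49 and 2.66 (2.58 ± 0.12), the smallest spread of the 9. The GABARAP sum over the LC3 sum was 2.20 in replicate 1 and 0.57 in replicate 2 (1.39 ± 1.15), and Sqstm1 over Map1lc3b was 0.48 and 3.10 (1.79 ± 1.85). Bnip3l over Fundc1 was 2.76 in replicate 1 and 11.25 in replicate 2. The second value depends on the pseudocount and on the transcripts counted. Over coding transcripts alone the ratio was 2.69 in replicate 1 and 5.59 in replicate 2.

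The 3 ratios without a common sign were Bnip3l over Bnip3, Map1lc3b over Map1lc3a and Bnip3l over Ulk1. Bnip3l over Bnip3 was -2.27 in replicate 1 and 1.00 in replicate 2. Map1lc3b over Map1lc3a was 1.497 in replicate 1 and -1.82 in replicate 2, with the same opposite signs as TMM-scaled CPM. Bnip3l over Ulk1 was -0.012 in replicate 1 and 2.69 in replicate 2.

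The libraries were then compared gene by gene. TMM-scaled counts of the 8884 genes whose CPM averaged 1 or more entered a two-sided exact binomial test with Benjamini-Hochberg adjustment, and a call needed a 2-fold difference besides an adjusted p under 0.05. With 1 library on each side the test covers counting error and compares these libraries, not conditions. Of the 10 genes 8 were called, against 47.8% of all genes tested. Higher in replicate 1 were 5, Fundc1, Map1lc3b, Gabarap, Gabarapl1 and Gabarapl2, against 29.8% of all genes, and higher in replicate 2 were 3, Bnip3l, Map1lc3a and Ulk1, against 18.0%. Scaling by total counts in place of TMM called 5 and 2, and over all genes 3546 and 948 in place of 2646 and 1598. Fundc1 (3.35 CPM in replicate 1 and 0.33 CPM in replicate 2) and Gabarapl2 (6.27 and 0 CPM) passed the filter only through replicate 1. The filter thus favoured their calls in that direction. With TMM and a mean CPM of at least 10, 6 of the 10 genes were called, 3 in each direction, against 43.9% of 5678 genes tested.

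The log2 ratio of replicate 1 over replicate 2 was 1.95 for Gabarapl1 (104 CPM in replicate 1 and 27.0 CPM in replicate 2), 1.53 for Map1lc3b (234 and 81.0 CPM) and 1.26 for Gabarap (435 and 182 CPM). Gabarapl1 had the largest adjusted p of these 3, 1.98e-195 by the exact binomial test. The ratio was -1.64 for Bnip3l (149 CPM in replicate 1 and 462 CPM in replicate 2) and -1.87 for Map1lc3a (38.1 and 139 CPM). Fundc1 was 10.1-fold higher in replicate 1 (exact 95% interval 3.90 to 37.3, adjusted p = 1.36e-11 by the exact binomial test). Gabarapl2 was at least 25.2-fold higher in replicate 1 against the floor of 3 counts per library (adjusted p = 1.04e-30 by the same exact test), and its exact two-sided 95% interval, which allows more than the floor does, started at 20.4-fold.

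The genes nearest the fold threshold were Ulk1 and Sqstm1. Ulk1, with 257 CPM in replicate 1 and 515 CPM in replicate 2, had a log2 ratio of -1.003 and was no longer called with total counts or with posterior mean counts. Sqstm1 (217 and 406 CPM, log2 ratio -0.90) and Bnip3 (141 and 193 CPM, log2 ratio -0.45) passed the exact binomial test, with adjusted p of 1.00e-289 and 1.75e-39, but lay under 2-fold. The median size of the log2 ratio was 1.58 over the 10 genes and 0.949 over all genes tested. The signed median was 0.40 over the 10 genes and 0.19 over all genes.

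**Figure D5:**
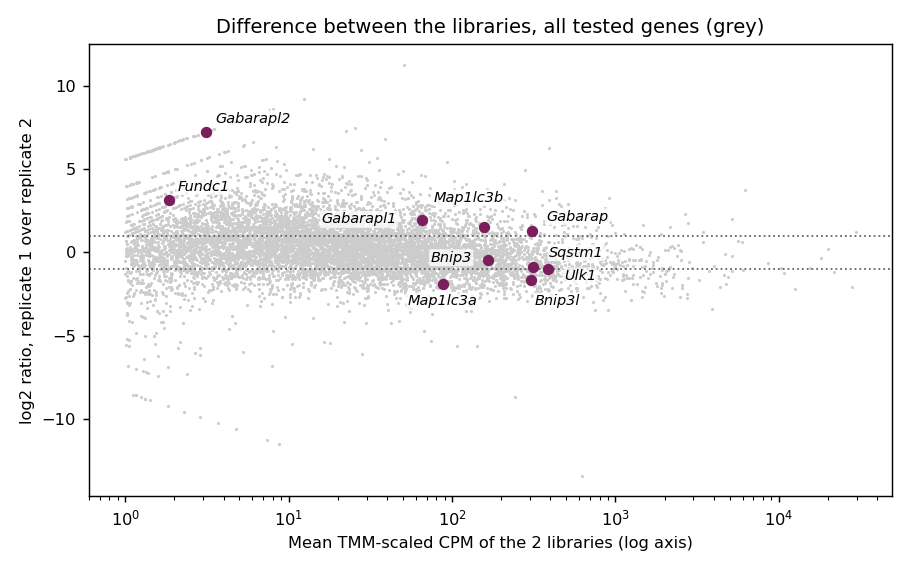
log2 ratio of replicate 1 over replicate 2 against the mean TMM-scaled CPM (log axis) for the 8884 genes tested (grey) and the 10 mitophagy receptor, ATG8 and related genes (purple, named); the dotted lines mark 2-fold. Of the 10 genes 5 lie above the upper line and 3 at or below the lower line, with Sqstm1 and Bnip3 between them; the point of Gabarapl2, with 0 counts in replicate 2, is set by a prior count of 0.5.

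The other genes of the pathway were measured as 6 groups holding 42 genes. Of these, 34 had at least 1 TPM in both libraries and are called present, against 17.2% of all genes and 33.1% of protein-coding genes. Of 37 tested, 7 were called higher in replicate 1 and 4 in replicate 2, against 29.8 and 18.0% of all genes tested. All 3 partners of ULK1 were present, from Atg13 at 54.9 ± 21.9 TPM to Atg101 at 21.8 ± 0.255 TPM (SD, n = 2). Of the 5 genes of the lipid kinase complex that marks the site of the new membrane 3 were present, led by the scaffold Becn1 at 158 ± 26.2 TPM, with the catalytic subunit Pik3c3 lowest at 0.775 ± 0.304 TPM.

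Of the 10 genes that cut ATG8 or join it to lipid 7 were present. The protease gene Atg4d led at 111 ± 65.9 TPM, and Atg4c had no count in either library. Atg3 and Atg7, which encode the E2-like and E1-like enzymes of the ATG8 transfer, and Atg4d were the 3 of 7 tested that were called higher in replicate 2, against 18.0% of all genes tested, and 0 of the 7 were called higher in replicate 1, against 29.8%. All 7 membrane supply genes were present, from the lipid scramblase gene Atg9a at 242 ± 76.0 TPM to Wdr45b at 9.03 ± 1.12 TPM.

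Among 10 other mitophagy and cargo receptor genes, 9 were present and tested, and 4 of these were called higher in replicate 1, against 29.8% of all genes tested: the inner-membrane prohibitin gene Phb2 and the cargo receptor genes Optn, Nbr1 and Tax1bp1. Fkbp8, whose product is an outer-membrane receptor that binds LC3, stood at 1438 TPM in replicate 1 against 4260 TPM in replicate 2, above each of the 10 genes in both libraries. Map1lc3c and Gabarapl3 had no entry by symbol.

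Reads of some of these genes can be shared with near-identical sequence. The processed pseudogene Bnip3l-ps (chromosome 12) matches Bnip3l at 99.4% over 1131 bases and had 68.3 counts in replicate 1 and 15.6 in replicate 2. Of 5 matches to Bnip3 only Gm16439 was measured, with 10.3 counts in replicate 1 and 0 in replicate 2. Map1lc3b had 138 matches, 134 of them of at most 193 bases, and 95 of the 138 had counts. Among its longer matches Gm6055 had 11.1 and 0 counts. How far reads were shared was not tested. Sqstm1 overlaps Mrnip on the opposite strand (890 counts in replicate 1 and 34 in replicate 2). Of the Sqstm1 transcripts only Sqstm1-201 reaches into Mrnip, and it had 152 counts in replicate 1 and 0 in replicate 2. Gabarapl1 overlaps 1700101I11Rik on the opposite strand (7 and 0 counts). The sources used here do not give whether strand was used in counting. No match of at least 95% identity over at least 100 bases was found for Fundc1, Map1lc3a, Gabarap or Ulk1.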

How the data were processed

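The assembly was mm10 and both libraries form 1 group, per the labels. A deposited text names GENCODE M4 and quantification from transcriptome alignments. Not given in the sources used here were aligner, tool, version and use of strand. As deposited, the authors' tables hold estimated counts (maximum likelihood and posterior mean), TPM and FPKM corrected for effective length, and the percent of a gene's TPM that falls to each transcript, with interval bounds that were not used for any result. Effective lengths fell 152 bases short of full lengths in replicate 1 and 130 bases in replicate 2. A later series, named in the title as replacing these data, was not used here.

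Symbols, positions and sequences came from GENCODE M21 on the same assembly, by identifier without its version; this named 42462 of 43346 genes. Of the 41 member transcripts 40 had equal length in both releases; Gabarapl1-201 has 1765 bases in the tables and 1820 in M21. Left out were 26345 entries that name no gene (3 counts in replicate 1, none in replicate 2). For the test between libraries, rounded estimated counts were given TMM factors by edgeR 4.0.16 (1.15 for replicate 1 and 0.871 for replicate 2), with a prior count of 0.5 for log2 ratios. The principal coding sequence is the one tagged by APPRIS in M21. Codons were located by translating it, near-identical copies with blastn 2.17.0 (at least 95% identity over 100 bases). Python 3.11.15 with scipy 1.17.1 and R 4.3.3 were used. The call between libraries was tested on simulated counts, and the other steps were not. The simulated counts held counting error only, so they cannot show how the call behaves under further spread between libraries.

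The members and the lists were chosen with earlier results of these data known. Named genes were the 10 members, the highest and lowest by mean TPM of each pathway group, the 3 protein-coding genes nearest Bnip3l and Gabarap in log2 TPM, and near-identical copies with counts; some items that this rule takes in are not reported here. Of 138 matches to Map1lc3b, 134 were short (at most 193 bases) and are not named. Epb42, Klf1, Hbb-bs, Hba-a1, Pf4, Phb2, Optn, Nbr1, Tax1bp1, Atg3 and Atg7 were named after their values were seen. Alternatives were posterior means, FPKM, TMM-scaled CPM, coding transcripts only, other filters, folds and pseudocounts, DESeq2 1.42.0 size factors, total counts, and each library alone; the principal coding sequence was added after seeing the data.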

Additional observations from a re-analysis of the deposited data

How the results depend on the processing

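No paired analysis was possible because the labels give 1 group. Over the principal coding sequence, chosen after seeing the data, the mean GABARAP subfamily share of ATG8 TPM was 40.5%, the Gabarap share 25.1% and the Bnip3l share of the receptors 82.7%; the mean log2 ratios were 2.37 for Bnip3l over Bnip3, 0.92 for Gabarap over Gabarapl1, -0.61 for the GABARAP over the LC3 sum, 0.27 for Gabarap over Map1lc3b, -0.54 for Sqstm1 over Map1lc3b and -1.55 for Bnip3l over Ulk1. As TMM-scaled CPM, which is not per length, the Gabarap share was 47.8%, and the ratios were 0.67 for Bnip3l over Bnip3, 0.92 for Map1lc3b over Map1lc3a, 2.40 for Gabarap over Gabarapl1, 1.03 for Gabarap over Map1lc3b and -0.47 for Bnip3l over Ulk1. Over coding transcripts, Bnip3l over Bnip3 was -3.39 and Bnip3l over Ulk1 -1.52. Leaving out a library gave -2.27 to 1.00 for Bnip3l over Bnip3, -1.82 to 1.497 for Map1lc3b over Map1lc3a and -0.012 to 2.69 for Bnip3l over Ulk1. The cause of these shifts was not tested.

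The number of the 10 genes called between libraries was 8 with DESeq2 size factors or no filter, 7 with total counts or posterior mean counts, 6 with a mean CPM of at least 10 (Fundc1 and Gabarapl2 not tested) and 9 with a fold of 1.5. Total counts moved the median log2 ratio of all genes to 0.61. The call between libraries has 1 library on each side, so leaving one out gives no value. Fundc1 and Gabarapl2 have 4 and 0 counts in replicate 2, so counting error there is wide. Other shares and mean ratios moved by no more than 1 SD of the 2 libraries and kept their sign, but that margin is wide. The Bnip3l share of the receptors was 10.9% over coding transcripts. As TMM-scaled CPM, the mean GABARAP over LC3 ratio was 0.46, with opposite signs in the libraries (1.00 in replicate 1 and -0.075 in replicate 2). Sqstm1 over Map1lc3b, with a mean of 1.11, also had opposite signs (-0.107 in replicate 1 and 2.32 in replicate 2).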

Other observations

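The regulators of the pathway were led by Foxo3, a transcription factor gene whose product is known to switch on autophagy genes, at 194 ± 14.8 TPM (SD, n = 2). Of 7 regulators 5 had at least 1 TPM in both libraries, against 33.1% of protein-coding genes, and Mitf had no count in either. Prkaa1, a catalytic subunit gene of the energy-sensing kinase AMPK, was named after its values were seen. It had 715 counts in replicate 1 and 18 in replicate 2. Of the 6 regulators tested it was the only one called, higher in replicate 1, against 29.8% of all genes tested called in that direction.

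The protein-coding genes closest to Bnip3l in log2 TPM over the 2 libraries were Laptm5, with 61.1 TPM in replicate 1 and 598 TPM in replicate 2 (distance 0.242), Tusc2, with 47.1 and 482 TPM (distance 0.638), and Cdan1, with 64.3 and 409 TPM (distance 0.794). Those closest to Gabarap were Pebp1, with 709.7 TPM in replicate 1 and 276 TPM in replicate 2 (distance 0.0659), Pigq, with 739 and 309 TPM (distance 0.181), and Prelid1, with 731 and 319 TPM (distance 0.228). With 2 libraries this likeness is a description.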
